A study of Rattus norvegicus with 30 samples.

Results

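The genes described here are 10 members of the amino acid response that is governed by the transcription factor ATF4: *Asns*, *Aldh18a1*, *Psat1*, *Phgdh*, *Psph*, *Trib3*, *Ddit3*, *Atf3*, *Atf4* and *Sesn2*. They are 10 of 14218 genes named on the rat array, and were taken as every probe set whose annotation names one of them, which gave 13 of 31099 probe sets. Of these 13, 12 were bright enough to be tested, as were 18625 probe sets in all. The tested probe sets covered 9 of the 10 genes, since the 1 probe set for *Atf3* was too dim.

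The study fed male Sprague-Dawley rats, 4 weeks old on arrival and adapted for 5 days to a commercial diet, 1 of 6 diets for 14 days, and measured liver RNA with 1 Affymetrix array per animal (5 animals per diet, 30 arrays). Each diet supplied 200 g/kg of protein. The protein was casein in diet C and soy protein in diet S, and diets CI and SI were these same diets with isoflavone added at the level that the full tofu diet contains. In diet T10 the protein was 100 g/kg from casein and 100 g/kg from freeze-dried tofu, and in diet T20 all 200 g/kg came from tofu, a soybean curd that carries its own isoflavone. S against C, and SI against CI, ask what soy protein does in place of casein. T10 and T20 against C ask what tofu does in place of casein, with its own isoflavone included. T20 against CI sets tofu against casein at matched isoflavone, and T20 against SI sets it against soy protein at matched isoflavone. CI against C and SI against S ask what the isoflavone does.

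When a cell runs short of an amino acid, uncharged transfer RNA activates the kinase GCN2, which phosphorylates the initiation factor eIF2 and slows protein synthesis. Translation of the *Atf4* transcript rises under this condition, so that ATF4 protein can increase without more of its RNA. ATF4 then acts with C/EBP partners at C/EBP-ATF response elements and raises genes for amino acid synthesis, amino acid uptake and the charging of transfer RNA, together with regulators that feed back on the response. The liver carries out much of the body's amino acid conversion, and *Asns* is a classical target of this pathway in liver cells.

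The promoters of the genes are shown because ATF4 acts through the response element. RefSeq (build GRCr8) gave the 250 bases before the start of 8 of the 10 genes; *Aldh18a1* and *Atf3* were not in the table. The core of the element was searched as TGATGNAA, or TTNCATCA on the opposite strand, and was present in 1 of the 8 windows, that of *Trib3*, against 1139 of all 33469 windows (3.4%). In *Trib3* the match TTACATCA lies from 21 to 14 bases before the start and reads TGATGTAA on the opposite strand. A match to these letters is a description and not evidence of binding, and windows without a match may hold other forms of the element. Elements outside the 250 bases searched, or near another start of the gene, would be missed. Of the sequences below, given 5′ to 3′ along the gene with the match in capitals, the first 2 belong to genes that passed a test of diet and the last to the gene with the match. They lie at chr4:36769416-36769665 (minus strand) for *Asns*, chr1:222645409-222645658 (minus strand) for *Psat1* and chr3:161275534-161275783 (minus strand) for *Trib3*.
Asns: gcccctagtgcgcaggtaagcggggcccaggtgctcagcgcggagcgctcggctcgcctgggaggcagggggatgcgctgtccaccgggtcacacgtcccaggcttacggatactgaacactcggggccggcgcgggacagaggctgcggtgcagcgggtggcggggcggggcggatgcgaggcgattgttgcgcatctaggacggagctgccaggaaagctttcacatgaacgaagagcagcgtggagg
Psat1: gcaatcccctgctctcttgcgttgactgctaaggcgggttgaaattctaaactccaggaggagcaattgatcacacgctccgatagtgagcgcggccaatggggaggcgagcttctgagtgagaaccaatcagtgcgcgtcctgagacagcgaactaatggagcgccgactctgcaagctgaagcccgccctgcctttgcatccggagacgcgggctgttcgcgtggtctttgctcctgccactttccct
Trib3: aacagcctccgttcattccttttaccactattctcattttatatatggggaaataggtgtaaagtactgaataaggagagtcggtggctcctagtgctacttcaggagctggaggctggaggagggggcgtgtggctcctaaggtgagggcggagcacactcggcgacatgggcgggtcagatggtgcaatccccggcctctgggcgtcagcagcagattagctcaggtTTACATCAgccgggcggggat

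The *Asns* window was rich in G and C (68.8%, against a median of 51.2% over all windows), and those of the 8 members ranged from 38.8% to 68.8%.

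Levels are given as log2 of the deposited intensity. A log2 difference of 1 is a doubling on the authors' linear scale, whose reference level is not stated. Array medians lay between 217.4 and 255.5. The defining hepatocyte markers were bright on every array (*Alb* between 85407.9 and 129458.5 in intensity). Of 42 tested markers of 8 cell types 0 passed in S against C, where 7.25% of all tested probe sets passed. In SI against CI, where 11.6% of all tested probe sets passed, 3 markers were higher (*Apoa2*, *Serpina1* and *Acta2*) and 1 was lower (*Cela1*). The summed intensity of the 8 exocrine pancreas markers was 1935.8 to 2849.8 in SI and 3033.7 to 4649.8 in CI. Only 2 of these 8 were bright enough to be tested. *Cela1* was by far the brightest (median intensity 2067.1, beside 280.3 for *Cpb1*, the other tested one), so the sums rest largely on this 1 gene. In T20 against C *Lyve1* (0.35) and *Cela1* (0.68) were higher, and in T20 against SI *Cela1* (1.13, limma adjusted p = 0.00112). Of all tested probe sets, 4.5% and 3.51% passed in these 2 comparisons. GAPDH control signal at the 3′ end over that at the 5′ end, a measure of RNA integrity, was 0.97 to 1.58 in T10 and lay between 1.01 and 1.25 in the other diets. The labels list identical normalization parameters for replicate 3 of C and replicate 3 of CI. The correlation of this pair was 0.9524, and array pairs of unlike diets ranged from 0.9393 to 0.9713. Calls that were lost without these 2 arrays are given below in both forms, and the part of markers and RNA integrity in the differences was not tested.

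*Asns* and *Aldh18a1*, 2 of the 9 tested members, were higher with soy protein than with casein in S against C, by 3.19-fold and 2.06-fold. In SI against CI 4 of 9 were higher, these 2 with *Psat1* and *Sesn2*. With tofu 0 of 9 passed against casein at either amount, and the 4 genes higher in SI than in CI were lower in T20 than in SI, 2 comparisons that share the SI livers. Of all tested probe sets, 7.25% passed in S against C (22.2% of the members), 11.6% in SI against CI (44.4%) and 3.51% in T20 against SI (44.4%). Calls were made by limma with Benjamini-Hochberg adjustment over all probe sets at 0.05. Members were counted as genes, each by its brightest tested probe set, and the background as probe sets. The members were chosen with earlier results of these data known, so their shares beside the background are a description. The median difference of the 9 members was 0.39, 0.48 and −0.37 in these comparisons, beside −0.04 and −0.02 over all probe sets in the first and second. Across all 6 diets, 3 of 9 members passed the moderated F test (33.3%, against 12.9% of all probe sets). In bulk liver, fewer cells of a type and less RNA per cell cannot be told apart.

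**Figure D1:**
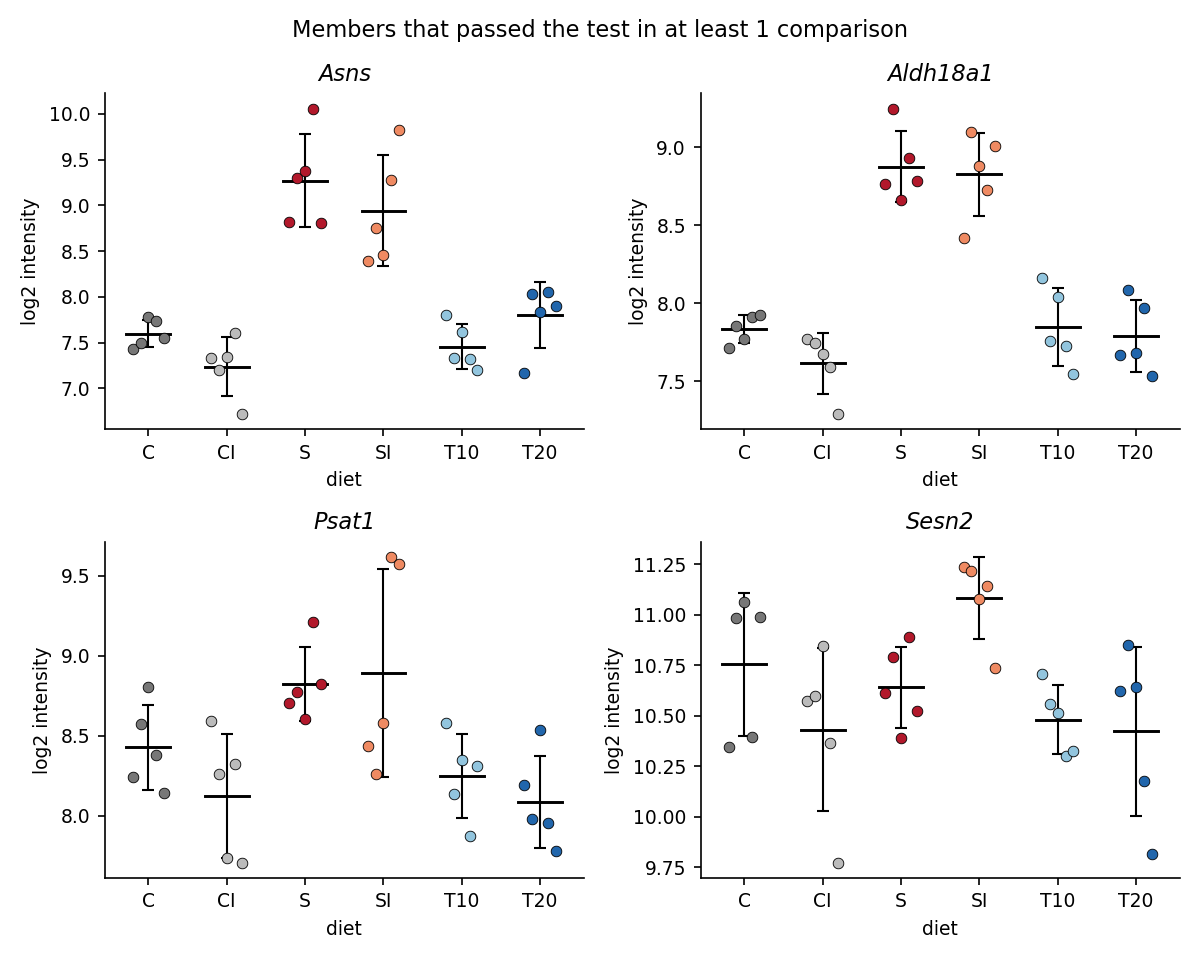
Log2 intensity of *Asns*, *Aldh18a1*, *Psat1* and *Sesn2* in each of the 30 livers by diet, with a line and bar at the mean and SD of 5 animals. The soy protein groups of *Asns* and *Aldh18a1* lie above all other groups (*Asns* 8.40 to 10.06 in S and SI, 6.72 to 8.06 in the other diets), and those of *Psat1* and *Sesn2* overlap the casein groups.

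*Asns* encodes asparagine synthetase, which transfers the amide of glutamine to aspartate. Its log2 intensity with casein was 7.43, 7.49, 7.78, 7.73 and 7.56 in the 5 C livers, and with casein and isoflavone 7.33, 7.20, 7.34, 7.60 and 6.72 in the 5 CI livers. With soy protein it was 8.82, 9.30, 9.37, 10.06 and 8.81 in S, and 8.40, 8.75, 8.46, 9.28 and 9.83 in SI. All 10 livers of the soy protein diets were above all 10 of the casein diets, and 1 S liver, replicate 4, held the highest value of the study. With tofu the values were 7.80, 7.33, 7.62, 7.32 and 7.20 in T10, and 7.17, 8.03, 7.84, 8.06 and 7.90 in T20. These tofu values overlapped those of casein and stayed under all soy protein values.

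In order, the group means of *Asns* were 9.27 ± 0.51 (SD, n = 5) in S, 8.94 ± 0.61 in SI, 7.80 ± 0.36 in T20, 7.60 ± 0.15 in C, 7.45 ± 0.25 in T10 and 7.24 ± 0.32 in CI. The mean intensity was 651 in S against 195 in C. *Asns* was 1.67 ± 0.24 (SE) higher in S than in C, a fold of 3.19 (95% interval of the difference 1.18 to 2.16, limma adjusted p = 5.29e-05). In SI it was 1.70 ± 0.24 higher than in CI, a fold of 3.26 (interval 1.21 to 2.19, limma adjusted p = 3.99e-05). Of neighbours in this order, SI and T20 differed by more than the spread (T20 minus SI −1.14, interval −1.63 to −0.65, limma adjusted p = 0.00832). S and SI did not differ beyond their spread (−0.33, limma adjusted p = 0.999), and neither did T20 and C (0.20, interval −0.29 to 0.69, 0.678) or C and T10 (0.887). T10 and CI overlapped. The F test over the diets gave 24.98 (limma adjusted p = 8.86e-07). With each array left out in turn, limma gave an adjusted p of 1.31e-05 to 0.000266 in S against C and of 1.44e-05 to 0.000232 in SI against CI. With replicate 3 of both casein diets left out the differences were 1.72 and 1.73.

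The difference of T20 from CI, 0.56 (interval 0.07 to 1.05), had a limma p of 0.0262 before adjustment and 0.232 after it. T20 against SI was called in every fit that left out an array (adjusted p 0.00419 to 0.036) and missed the threshold when only those 2 diets were fitted (0.0877). *Asns* is dim: 8 of its 30 arrays lie under the filter level of 7.39, and the mean of its 20 arrays on casein and tofu was 7.52, just above that level.

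*Aldh18a1* encodes delta-1-pyrroline-5-carboxylate synthase, the enzyme that commits glutamate to proline and ornithine. Its log2 intensity was 7.71, 7.85, 7.77, 7.91 and 7.92 in C, and 7.77, 7.75, 7.67, 7.59 and 7.29 in CI. It was 8.76, 9.25, 8.66, 8.93 and 8.78 in S, and 8.42, 9.10, 8.88, 8.72 and 9.01 in SI. The 10 soy protein livers were again all above the 10 casein livers, with less spread than *Asns*. In T10 it was 8.16, 7.75, 8.04, 7.73 and 7.54, and in T20 7.67, 8.09, 7.68, 7.97 and 7.53. Each tofu value was under the lowest soy protein value.

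The means of *Aldh18a1* were 8.88 ± 0.23 (SD, n = 5) in S, 8.83 ± 0.27 in SI, 7.85 ± 0.25 in T10, 7.83 ± 0.09 in C, 7.79 ± 0.23 in T20 and 7.61 ± 0.20 in CI. It rose by 1.04 ± 0.14 (SE) in S against C, a fold of 2.06 (interval 0.76 to 1.32, limma adjusted p = 1.76e-05), and by 1.21 ± 0.14 in SI against CI, a fold of 2.32 (0.93 to 1.49, 2.33e-06). T20 lay below SI (−1.04, interval −1.32 to −0.76, limma adjusted p = 0.000121). The gene did not differ beyond its spread between T20 and C (−0.05, interval −0.33 to 0.24, 0.886), T10 and C (0.01, 0.985) or SI and S (−0.05, 0.999). The F statistic was 33.67 (limma adjusted p = 7.18e-08). Every call of this gene held with each array left out in turn, the largest adjusted p being 0.000133 in S against C, 1.87e-05 in SI against CI and 0.000938 in T20 against SI.

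**Figure D2:**
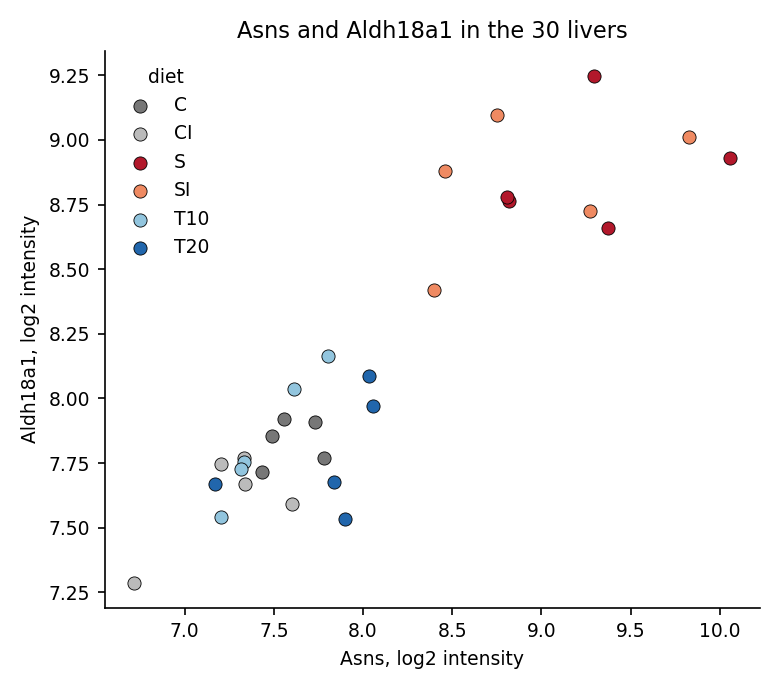
Log2 intensity of *Asns* against that of *Aldh18a1*, 1 point per liver coloured by diet. The 10 livers of the soy protein diets form the upper right cluster, and the 20 livers of the other diets the lower left one.

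Across the 30 livers *Asns* and *Aldh18a1* correlated at r = 0.904 (Spearman 0.826), a description that rests mostly on the diets: with diet means removed, r was 0.478. Both genes were read from the same arrays, and no p-value is given.

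Serine is made from a glycolytic intermediate in 3 steps. *Phgdh* encodes phosphoglycerate dehydrogenase, which makes the first step, *Psat1* phosphoserine aminotransferase, the second, and *Psph* phosphoserine phosphatase, the last. *Psat1* passed in SI against CI and in T20 against SI, and the other 2 passed in no comparison.

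*Psat1* was 8.24, 8.57, 8.81, 8.38 and 8.14 in C, 8.70, 8.77, 8.60, 9.21 and 8.82 in S, and 8.59, 8.26, 7.74, 8.33 and 7.71 in CI. In SI it was 8.44, 8.26, 8.58, 9.62 and 9.57, in T10 8.58, 8.14, 8.35, 7.87 and 8.31, and in T20 8.19, 7.98, 8.53, 7.95 and 7.78. SI replicates 4 and 5 stood above all other livers of this gene, and the SI and CI ranges overlapped. The difference was 0.77 ± 0.23 (SE; 0.31 to 1.23, fold 1.70, limma adjusted p = 0.0264) in SI against CI, and −0.81 (−1.27 to −0.34, 0.0431) in T20 against SI. In S against C it was 0.39 (−0.07 to 0.86, limma adjusted p = 0.323), which did not pass. Across the 6 diets the F test gave 4.82 (limma adjusted p = 0.028).

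Those calls of *Psat1* rest on single livers. SI against CI lost its call without CI replicate 3 (limma adjusted p = 0.0703), CI replicate 5 (0.0816), SI replicate 4 (0.0898) or SI replicate 5 (0.0993), and with replicate 3 of both casein diets left out (0.0697). T20 against SI lost it without SI replicate 4 (0.124), SI replicate 5 (0.133), or T20 replicate 1 (0.0766), 2 (0.0888), 4 (0.0618) or 5 (0.0851). Fitting only the groups compared ended both calls (0.102 and 0.18), and array weights (0.107) and no filter on dim probe sets (0.0652) ended that of T20 against SI. The F test lost its call without S replicate 4 (0.0515) or SI replicate 5 (0.0539), and so did T20 against SI (0.0546) and the F test (0.0528) without T10 replicates 3 to 5.

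For *Phgdh* the values were 7.04, 8.17, 7.37, 7.99 and 7.79 in C and 7.57, 8.26, 8.73, 8.66 and 7.77 in S. The difference of 0.53 ± 0.26 (SE; interval 0.00 to 1.05) had a limma p of 0.0493 and an adjusted p of 0.232. SI and CI differed by −0.02 (limma adjusted p = 0.973). *Psph* was 9.04, 9.32, 9.24, 9.45 and 9.08 in C and 9.91, 9.75, 9.39, 9.61 and 9.40 in S, with a difference of 0.39 ± 0.15 (limma adjusted p = 0.116), and in SI against CI it differed by 0.13 (0.603). The C and S livers of both genes overlapped.

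*Atf4* itself was among the brightest transcripts (96.37th percentile of mean level), and its RNA did not pass in any comparison. It was 13.07, 12.36, 12.52, 12.45 and 12.72 in C and 11.77, 12.41, 12.28, 12.54 and 12.07 in S. It was 12.69, 12.56, 12.20, 12.23 and 12.16 in CI and 12.64, 12.19, 12.93, 11.84 and 13.12 in SI. The sign in S against C was negative (−0.41 ± 0.19 SE, interval −0.80 to −0.02, limma adjusted p = 0.207), opposite to that of *Asns*, and in SI against CI it was 0.18 (0.586). In T10 and T20 the means were 12.28 ± 0.24 and 12.28 ± 0.21 (SD, n = 5), −0.35 (0.569) and −0.34 (0.323) from C, and the group ranges overlapped. *Asns* and *Atf4* RNA correlated at r = 0.075 over the 30 livers (0.322 with diet means removed), and *Atf4* with *Trib3* at 0.534 (0.514); of 45 member pairs 6 exceeded 0.5 and the median was 0.127. These correlations are descriptions over livers that share arrays and diets.

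**Figure D3:**
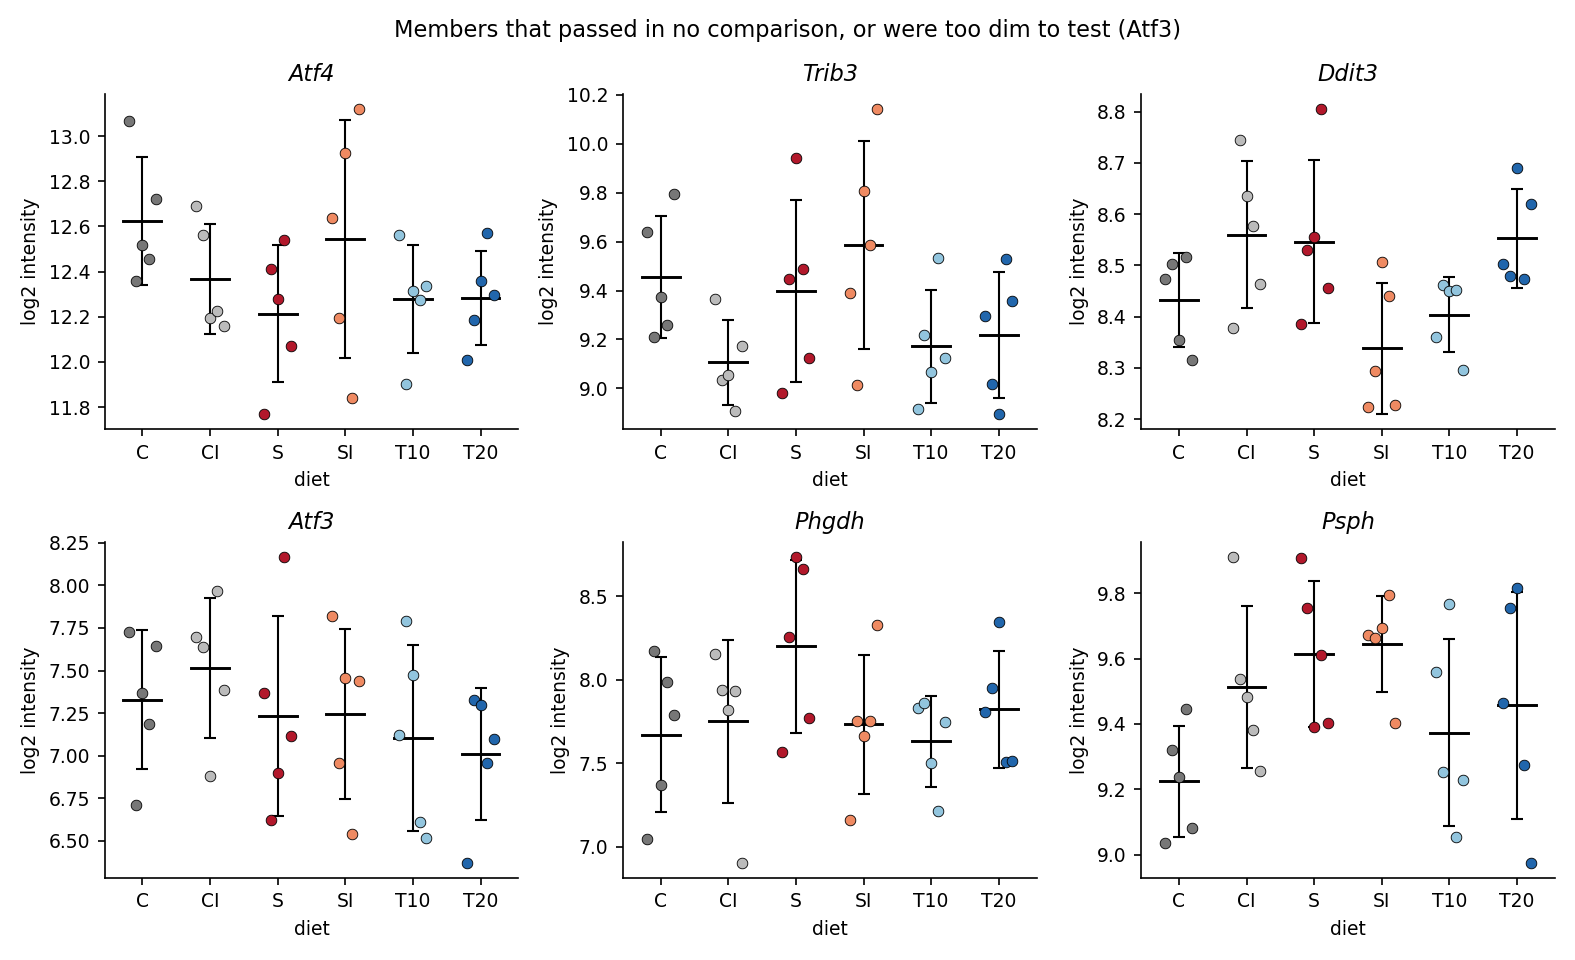
Log2 intensity of *Atf4*, *Trib3*, *Ddit3*, *Atf3*, *Phgdh* and *Psph* in each of the 30 livers by diet, with mean and SD of 5 animals. *Atf3*, whose mean lies under the filter level, was not tested in the main fit, and none of the others passed in any comparison. T20 lies above T10 in *Ddit3* with a limma adjusted p of 0.746.

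*Ddit3* (CHOP, a stress-induced partner of C/EBP factors) and *Trib3* (a pseudokinase that restrains ATF4) showed no call. *Atf3* (a stress-induced repressor of the same family as ATF4) was too dim to be tested in the main fit. The *Ddit3* means were 8.43 ± 0.09, 8.56 ± 0.14, 8.55 ± 0.16 and 8.34 ± 0.13 (SD, n = 5) in C, CI, S and SI. Its difference of −0.22 in SI against CI had a limma p of 0.0129, adjusted 0.0799, and passed without CI replicate 1 (0.0444) or SI replicate 3 (0.0462). T20 lay above T10 with no overlap, by 0.15 (limma adjusted p = 0.746), which did not pass.

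*Trib3* has 3 probe sets, of which the brightest had means of 9.46 ± 0.25, 9.11 ± 0.17, 9.40 ± 0.37 and 9.59 ± 0.43 (SD, n = 5) in C, CI, S and SI. Its difference of 0.48 ± 0.18 (SE) in SI against CI had a limma p of 0.0122, adjusted 0.0774. The other 2 probe sets gave 0.69 (0.0616) and 0.42 (0.415), so that all 3 pointed up in this comparison and none passed. That of the brightest passed under quantile normalization (0.0494), with each array centred on its median (0.0224), with the arrays set to 1 median and 1 spread (0.0451) and without SI replicate 2 (0.0281). In S against C it was −0.06 (0.896). *Atf3* had 19 of 30 arrays under the filter level, so it was tested only in a fit without that filter, where it differed by −0.09 (0.924) in S against C and −0.27 (0.638) in SI against CI.

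*Sesn2* encodes sestrin 2, a leucine-binding protein that restrains mTORC1. It was 10.57, 10.60, 10.85, 10.37 and 9.77 in CI, 11.24, 11.22, 11.08, 11.14 and 10.74 in SI, and 10.63, 10.85, 10.64, 10.18 and 9.82 in T20. In C it was 10.35, 10.98, 11.06, 10.39 and 10.99, in S 10.61, 10.79, 10.39, 10.89 and 10.53, and in T10 10.71, 10.56, 10.51, 10.30 and 10.32. SI stood highest, with 4 of its 5 livers above all CI and T20 livers, and S lay within the range of C. SI was 0.65 ± 0.19 (SE) above CI (0.27 to 1.03, fold 1.57, limma adjusted p = 0.023), and T20 lay at −0.66 against SI (−1.04 to −0.28, 0.0444), while S against C gave −0.11 (0.79).

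The second *Sesn2* probe set, which is dimmer, passed for T20 against SI (−0.74 ± 0.18 SE, limma adjusted p = 0.0183) and not for SI against CI (0.38 ± 0.18, 0.166). The brighter one lost its call in SI against CI without CI replicate 4 (0.0516), CI replicate 5 (0.0892) or SI replicate 2 (0.0565), and in T20 against SI in 13 of 30 fits that left out 1 array (adjusted p up to 0.121). The loss in T20 against SI also came with the arrays set to 1 median and 1 spread (0.0778), without the filter on dim probe sets (0.0652), with only those diets fitted (0.123) and without T10 replicates 3 to 5 (0.058). Over the 6 diets the F test of the dimmer probe set passed (limma adjusted p = 0.0491) and that of the brighter one did not (0.0666). The latter passed under median centring (0.0305), array weights (0.0351) and the mean of both probe sets (0.0335), and without C replicate 1 (0.0465), CI replicate 3 (0.0423) or T20 replicate 2 (0.0402).

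Outside the comparisons of soy protein with casein or tofu, no comparison of diets gave a call. Each member was counted by its brightest tested probe set. T10 against C had 0 of 9 members at an adjusted p under 0.05 (background 0.322%) and 0 at an unadjusted limma p under 0.05. T20 against C had 0 and 0 (background 4.5%). The adjusted p of these probe sets ran from 0.569 to 0.985 in T10 against C and from 0.323 to 0.886 in T20 against C. T20 against CI had 0 and 1 (*Asns*; background 2.12%), T20 against T10 0 and 0 (background 0%). Isoflavone on casein, CI against C, gave 0 and 0 (background 0%), and on soy protein, SI against S, 0 and 2 (*Ddit3* −0.21 and *Sesn2* 0.44, background 0%). The interaction of isoflavone with protein source gave 0 of 9 (background 0.0161%), with 4 at an unadjusted limma p under 0.05. Of these, *Sesn2* had the smallest p (0.76 ± 0.26 SE, limma adjusted p = 0.477). *Atf4* (0.59) and *Trib3* (0.54) were also positive, and *Ddit3* was negative (−0.34, limma adjusted p = 0.477). The interaction was 0.03 ± 0.34 for *Asns* and 0.17 ± 0.19 for *Aldh18a1*. The dimmer *Sesn2* probe set, not counted here, had an unadjusted limma p of 0.0165 in T20 against C (−0.45, adjusted 0.138). In T20 against CI its unadjusted limma p was 0.0496 (−0.37, adjusted 0.308). A second *Trib3* probe set had an unadjusted limma p of 0.0187 in CI against C (−0.60, adjusted 0.496). In the interaction that probe set had 0.0128 (0.91, adjusted 0.479). The backgrounds in brackets are shares at an adjusted p under 0.05 only. Of all 18625 tested probe sets, 1845 in T10 against C and 3800 in T20 against C had an unadjusted limma p under 0.05. The same count was 3005 in T20 against CI, 1318 in T20 against T10 and 1605 in CI against C. It was 664 in SI against S and 1716 in the interaction. A p that misses the threshold does not show that groups are alike.

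**Figure D4:**
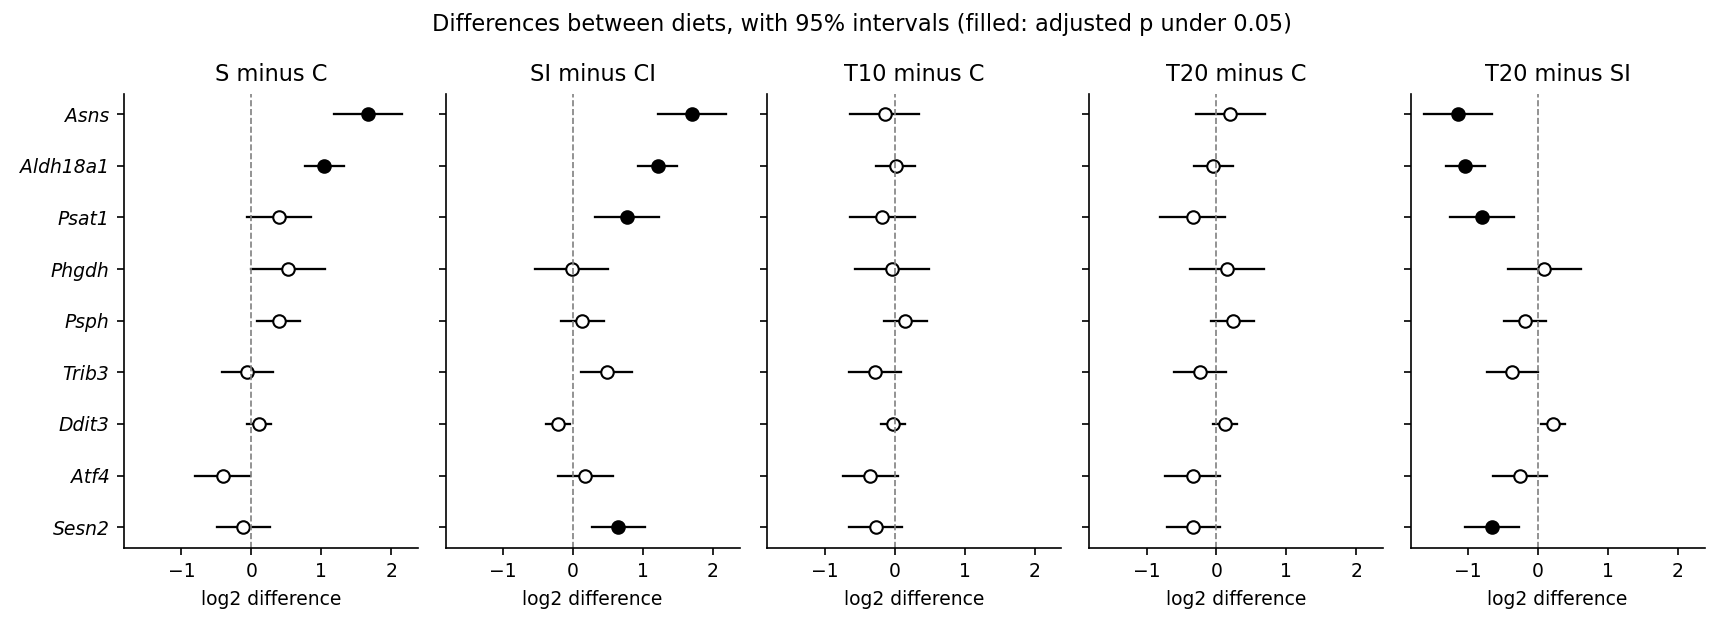
Log2 differences of the 9 tested members in 5 comparisons, with 95% intervals; filled points have an adjusted p under 0.05 by limma. Filled points of S against C and SI against CI lie to the right of 0, those of T20 against SI to the left, and none is filled for T10 or T20 against C.

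Of 67 tested genes in 5 lists (sensors and eIF2 control, partner and downstream regulators, transporters, amino acid and one-carbon enzymes, and aminoacyl-tRNA synthetases), 2 were higher and 4 lower in S against C (8.96%, beside 7.25% of all probe sets), and 7 higher and 3 lower in SI against CI (14.9%, beside 11.6%). In T20 against C 0 were higher and 6 lower (8.96%, beside 4.5%), and in T20 against SI 1 was higher and 3 lower (5.97%, beside 3.51%). In T10 against C none passed. The genes named below that passed only in SI against CI or T20 against SI were chosen after their values were seen.

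The transcripts of the sensors and of eIF2 control (10 tested) showed 0 calls in S against C (median −0.09) and 4 in SI against CI. There *Eif2ak1* (HRI, the heme-regulated eIF2 kinase) was 0.30 higher (limma adjusted p = 0.0141) and *Gcn1*, which helps activate GCN2, 0.56 higher (0.0262), while *Eif2ak4*, which encodes GCN2 itself, was −0.47 (0.0279) and *Impact*, an inhibitor of GCN2 activation, −0.74 (0.0275). The *Eif2ak1* call held with each array left out, and those of the other 3 did not (adjusted p up to 0.0784). *Eif2ak4* also lost its call under quantile normalization (0.0602), median centring (0.0891) and a common median and spread (0.0739), and *Impact* under the last 2 (0.0502 and 0.0512).

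Of 17 tested partner and downstream regulators, *Eif4ebp1*, the 4E-BP1 repressor of cap-dependent translation, was 0.28 higher in S against C (limma adjusted p = 0.0499) and kept that call in 7 of 30 fits with 1 array left out. *Nupr1*, a stress-induced chromatin protein, was −0.60 in T20 against C (0.0375) and −0.67 in T20 against SI (0.0227). *Ddit4*, an mTORC1 inhibitor, was 0.67 higher in SI against CI (0.0412) and *Vldlr*, a lipoprotein receptor, −0.66 (0.0253). None of these 4 held its call in every fit with an array left out.

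Among 10 transporters, *Slc3a2*, the heavy chain of several amino acid exchangers, was 0.55 higher in SI against CI (limma adjusted p = 0.0174), and *Slc6a9*, a glycine transporter, was −0.57 in T20 against C (0.0061; held with each array left out, up to 0.0279). The enzymes of amino acid and one-carbon metabolism (11 tested) moved both ways in S against C: *Glul*, glutamine synthetase, was 0.45 higher (0.0224), and *Cbs*, cystathionine beta-synthase, fell by 0.86 (0.000348), *Aldh1l2*, a mitochondrial folate enzyme, by 0.64 (0.00546) and *Gls2*, liver-type glutaminase, by 0.48 (0.0177). *Glul* was also 0.80 higher in SI against CI (0.000107). With each array left out in turn, the calls of *Cbs* and *Aldh1l2* in S against C and of *Glul* in SI against CI held, and those of *Slc3a2* in SI against CI (limma adjusted p up to 0.0642) and of *Glul* (0.0783) and *Gls2* (0.0587) in S against C were lost in at least 1 fit. *Cbs* was also higher in T20 than in SI (0.58, 0.0244) and *Aldh1l2* lower in T20 than in C (−0.56, 0.0236).

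Transfer RNA synthetases (19 tested) gave 1 call in S against C, *Tars1*, the threonyl enzyme (−0.72, limma adjusted p = 0.0187). In T20 against C, *Tars1* was −0.79 (0.0174), *Lars1*, the leucyl enzyme, −0.45 (0.0171) and *Gars1*, the glycyl enzyme, −0.41 (0.0392). In SI against CI, *Kars1*, the lysyl enzyme, was 0.33 higher (0.00705) and *Vars1*, the valyl enzyme, 0.35 higher (0.0178). None of the 19 was higher in S against C. In T20 against SI *Gars1* was −0.48 (0.0183) and *Kars1* −0.28 (0.0428). With 1 array left out, the calls of *Tars1* in T20 against C and *Kars1* in SI against CI held, and the others of this list were lost in at least 1 fit (limma adjusted p up to 0.148). Of the genes of endoplasmic reticulum folding (23 tested), which share regulators with this response, *Derl1*, a protein of the degradation channel, was higher in S against C (0.45, 0.000511), SI against CI (0.55, 5.11e-05) and T20 against C (0.30, 0.0292), and the chaperones and folding enzymes *Hyou1* (0.48, 0.00942), *Calr* (0.31, 0.019), *Pdia3* (0.23, 0.0464) and *Dnajb11* (0.34, 0.0337) were higher in SI against CI. *Hyou1*, *Pdia3* and *Dnajb11* were lower in T20 than in SI (−0.59, −0.26 and −0.37). Of the 23, 1 passed in S against C (7.25% of all probe sets did) and 5 in SI against CI (11.6%). In T20 against C 1 passed (4.5% of all probe sets) and in T20 against SI 3 (3.51%). Of these calls, those of *Hyou1* and of *Derl1* against C and CI in the soy protein diets held with each array left out, and the others were lost in at least 1 fit (up to 0.166).

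With replicate 3 of both casein diets left out, calls ended in S against C for *Eif4ebp1* (limma adjusted p = 0.0619), in SI against CI for *Ddit4* (0.0561) and in T20 against SI for *Dnajb11* (0.0529). In T20 against C they ended for *Nupr1* (0.0607), *Aldh1l2* (0.0795), *Gars1* (0.115), *Lars1* (0.0538) and *Derl1* (0.0855). Calls outside the sensors also ended under at least 1 of the 3 other scalings. These were *Eif4ebp1* (up to 0.0642) and *Gls2* (0.0566) in S against C, and *Vldlr* (0.0521), *Calr* (0.303), *Pdia3* (0.539) and *Dnajb11* (0.0994) in SI against CI. In T20 against C these were *Nupr1* (0.083), *Aldh1l2* (0.0873), *Gars1* (0.171) and *Derl1* (0.103), and in T20 against SI *Kars1* (0.157), *Pdia3* (0.77) and *Dnajb11* (0.207).

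**Figure D5:**
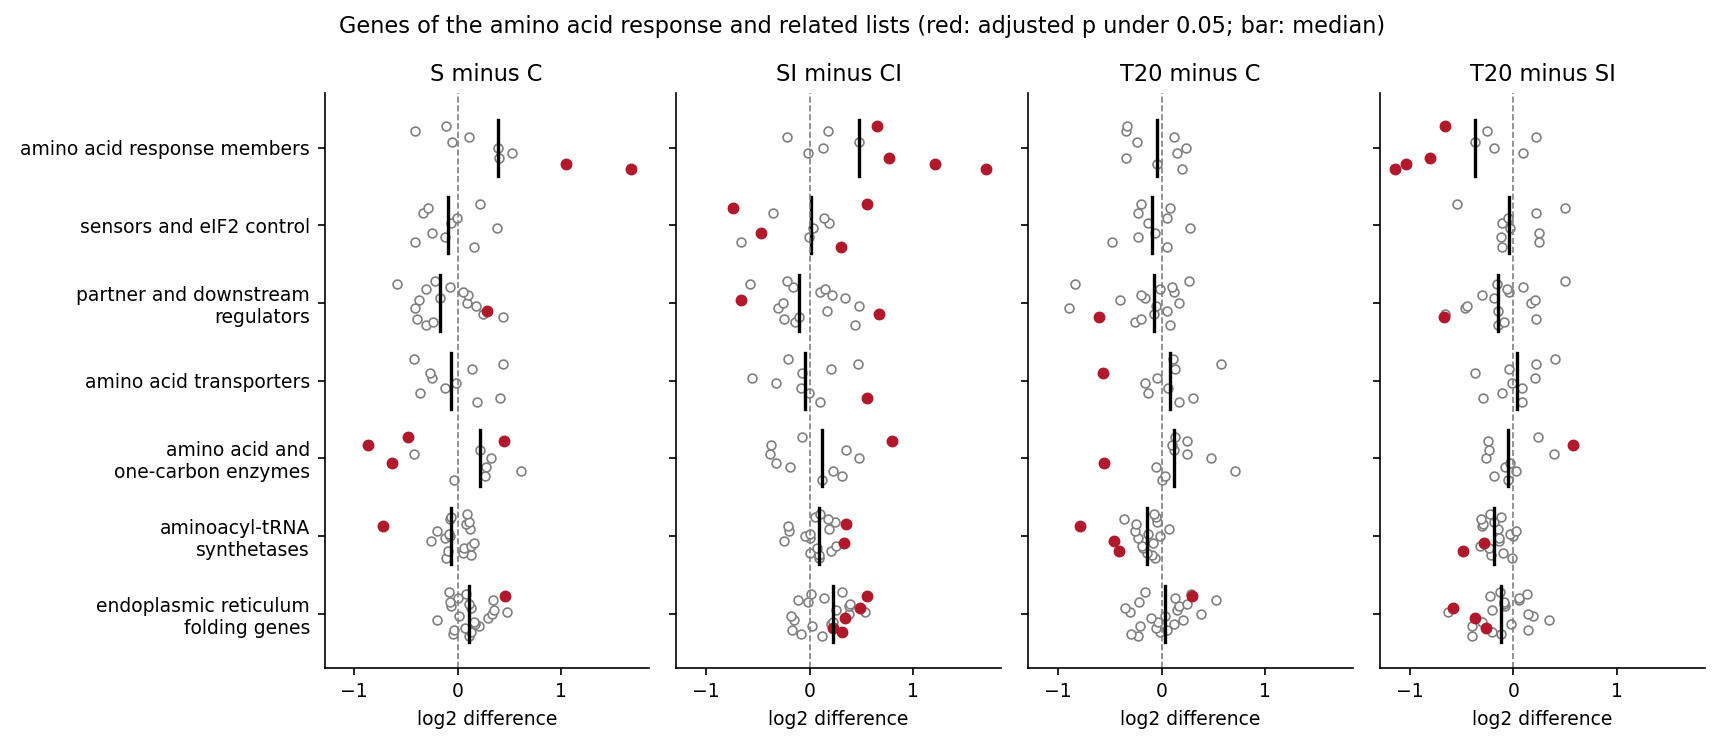
Log2 differences of tested genes of 7 lists in 4 comparisons, 1 point per gene; red points have an adjusted p under 0.05 by limma and black bars mark the list's median. The members' median lies at 0.39 in S against C and 0.48 in SI against CI, and those of the other lists lie between −0.17 and 0.23 in these comparisons.

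Among 10699 genes with the 10 members set aside, those most like *Asns* over the 30 livers were *Gfra3*, a GDNF family receptor (r = 0.907, Spearman 0.834), *Dcakd* (0.905, 0.845), *Agpat3*, an acyltransferase of phospholipid synthesis (0.886, 0.759), *Eppk1*, epiplakin (0.885, 0.82), *Lrrc8d*, a subunit of volume-regulated anion channels (0.881, 0.827) and *Mogs*, a glucosidase of glycoprotein trimming (0.874, 0.884). With diet means removed, r fell to between 0.41 and 0.589. These are descriptions over livers that share diets, with no p-value. *Gfra3* was 1.28 ± 0.15 (SE) higher in S than in C. It was picked for its likeness to *Asns* over these same arrays, so this difference is built into the choice and is a description.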

How the data were processed

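The study measured liver RNA from 30 rats with 1 one-colour Affymetrix array each; labels call the arrays of a diet biological replicates, and diets were taken from the labels. Per the labels' protocols, the authors used the SuperNORM data service to normalize the arrays and to reduce each probe set to 1 intensity; the deposited intensities are linear, and their reference level was not stated in the labels. A table of the authors' analysis of variance was not used.

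Of 31099 probe sets, 57 controls were left out. Intensities below 16 were set to 16, values were log2 transformed, and probe sets with a mean above the 40th percentile (7.39 log2, intensity 168) were tested, leaving 18625. The platform's annotation named a single gene for 20826 non-control probe sets, several for 436 and no gene for 9780; 20764 of the single names matched a current RefSeq record. A gene was represented by its brightest tested probe set. Diet means were fitted to all 30 arrays with limma 3.58.1 in R 4.3.3 (two-sided tests, variance trend, 24 residual degrees of freedom), and p-values were adjusted (Benjamini-Hochberg, threshold 0.05) over all tested probe sets of each of 10 comparisons. The fit was tested on simulated data. Figures were drawn with matplotlib 3.10.9 in Python 3.11.15.

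All 10 members were named; of the other lists, genes past the threshold in S or T20 against C were named, at most 6 per list, and the 6 genes outside the members most like *Asns*. The members and lists were chosen with earlier results of these data known. Alternatives covered scaling, floor, filter, variance trend, samples fitted, array weights, a replicate block, the threshold and leaving out arrays. The number of arrays limits the precision.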

Additional observations from a re-analysis of the deposited data

Results flagged for a closer look

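Of 78 sets of 5 values (13 member probe sets in 6 diets), 2 held a liver far from the others by Dixon's criterion, which chance alone marks in about 1 of 20 such sets. *Asns* in T20 replicate 1 was 7.17 in log2 intensity, against 7.84 to 8.06 in the other T20 livers, with a gap of 0.754 of the range. *Phgdh* in CI replicate 5 was 6.91, against 7.82 to 8.16 in the other CI livers, with a gap of 0.731 of the range.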

How the results depend on the processing

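Of 4413 member results under alternatives, 4355 kept their side of the threshold, 45 lost a call and 13 gained one. The sign turned in 90 of them, over 24 differences, of which 0 were called (lowest limma adjusted p 0.784). Most of the 4413 were results without a call in the main fit. That fit called 2 members in S against C, 4 in SI against CI, 4 in T20 against SI and 3 over all diets. The lost calls were those of *Psat1* and *Sesn2*, and that of *Asns* in T20 against SI when only those diets were fitted. A filter at the 60th percentile left *Asns*, *Aldh18a1* and *Phgdh* untested, and the members called were then 0 in S against C, 2 in SI against CI, 2 in T20 against SI and 1 over all diets. A threshold of 0.01 left 2 in SI against CI and 2 in T20 against SI. In T20 against SI, no filter left 2, fitting only the groups compared left 1, and leaving out T10 replicates 3 to 5 left 2. Calls of *Psat1* and *Sesn2* that single settings ended are given with those genes above. With each array left out in turn, SI against CI ranged from 2 (without CI replicate 5) to 5 members and T20 against SI from 2 (without SI replicate 4 or T20 replicate 1, 4 or 5) to 4. The share of all probe sets that passed was not counted in these settings or with the replicate block below. These member counts therefore have no background beside them, and whether the members moved more than the array cannot be read from them. Of 54 calls of 30 other genes, 27 held in every fit that left out an array. Whether equal replicate numbers pair the livers was not settled. Of 75 same-numbered pairs, 22 correlated above 0.1 in their deviations (median 0.05, lowest −0.28, highest 0.35). Differently numbered pairs had a median of −0.01, and 8 of 30 arrays matched best with their own number. A replicate block changed 1 of 99 member results, *Sesn2* over all diets (F 4.95, limma adjusted p = 0.0266), which made 4 members called over all diets. Median centring moved the median of all probe sets in SI against CI by 0.11, from −0.02 to 0.09. The probe sets called in that comparison went from 2168 to 2771. *Asns* lies near the filter level, so its low groups are measured with little signal.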

Other observations

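S replicate 4 lay above its diet mean in 9 of 10 members (mean deviation 0.35 in log2), and S replicate 5 in 0 of 10. CI replicate 5 lay above it in 1 of 10 (mean deviation −0.34) and CI replicate 1 in 9 of 10.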
